A study of Mus musculus with 17 samples.

Results

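The genes described here are 54 mouse genes of the endoplasmic reticulum (ER), the compartment where cells make and fold secreted and membrane proteins. They were chosen by name, as the genes for protein translocation into the ER, protein folding, N-glycosylation, ER-associated degradation and ER stress, and were looked up by the array platform's gene symbols. Earlier results of these data were known when the list was chosen, so its shares set against all genes are descriptive. Of the 54, 52 had at least 1 probe set with a single gene symbol, out of 22180 genes measured in this way. The other 2, Srp54a and Pdia4, lie on probe sets that also carry other symbols and entered no test. The cells were eosinophils of CC10-IL13 transgenic mice aged 6 to 8 weeks, a line in which doxycycline (Dox) in the food switches on interleukin-13 (IL-13). CC10 names the club cell secretory protein of the airways, so the transgene is driven by an airway promoter. Every group carried the transgene. The 4 groups fed Dox for 2 weeks were esophageal eosinophils of PirB knockout (Pirb-/-) mice, esophageal eosinophils of wildtype (Pirb+/+) littermates, marrow eosinophils of PirB knockout mice and marrow eosinophils of wildtype littermates, with 3 arrays each. The 2 groups without Dox were marrow eosinophils of knockout mice (3 arrays) and of wildtype littermates (2 arrays, replicates 1 and 3). PirB, paired immunoglobulin-like receptor B, restrains the activation of myeloid cells and B cells. The sort took cells bearing CD45, CCR3 and Siglec-F from collagenase-digested esophagus or from marrow passed through a needle, so tissue and preparation cannot be told apart. No label says whether a replicate is 1 mouse or a pool, so the errors and p-values cover the spread between these samples.

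As background, a protein bound for secretion is recognised by the signal recognition particle as it leaves the ribosome, is handed to the Sec61 channel in the ER membrane, loses its signal peptide to signal peptidase, and receives sugar chains from oligosaccharyltransferase. Chaperones and disulfide isomerases then fold it, and proteins that stay misfolded are sent back to the cytosol for degradation. When unfolded proteins build up, the sensors encoded by Ern1, Eif2ak3 and Atf6 start the unfolded protein response, which slows translation and raises chaperone genes. Developing eosinophils in the marrow make large amounts of granule proteins through this pathway, while mature eosinophils carry them preformed.

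The deposited values are log2 distances of an array from a midpoint of each probe set, which in 97.1% of probe sets lies midway between 2 of the arrays. A value of 0 is thus neither an array nor a low level, and no level can be compared between genes. One array, replicate 3 of the knockout marrow group without Dox, differed from all others. Over all genes its values were spread with an SD of 0.80, while the SD was 0.51 to 0.61 across the esophageal arrays and 0.23 to 0.28 across the remaining 10 arrays of marrow, and 43 of the 52 ER genes lay below 0 in it. Results are therefore also given without it. The probe set of Pirb itself, the targeted gene, had values of 0.77, 1.20 and 1.02 in esophageal knockout arrays, against 2.17, 0.75 and 0.92 in esophageal wildtype arrays. In marrow it had -0.013, -0.79 and -0.39 in knockout arrays with Dox, against -0.21, -0.55 and 0.013 in wildtype arrays with Dox, and 0.16, -0.12 and -1.21 in knockout arrays without Dox, against -0.16 and 0.19 in wildtype arrays without Dox. It did not separate the genotypes in any of the 3 settings (adjusted p of 0.707, 1.00 and 0.666), and since no label says which part of the gene was deleted, it checks nothing, and knockout and wildtype below are the labels' words.

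**Figure D1:**
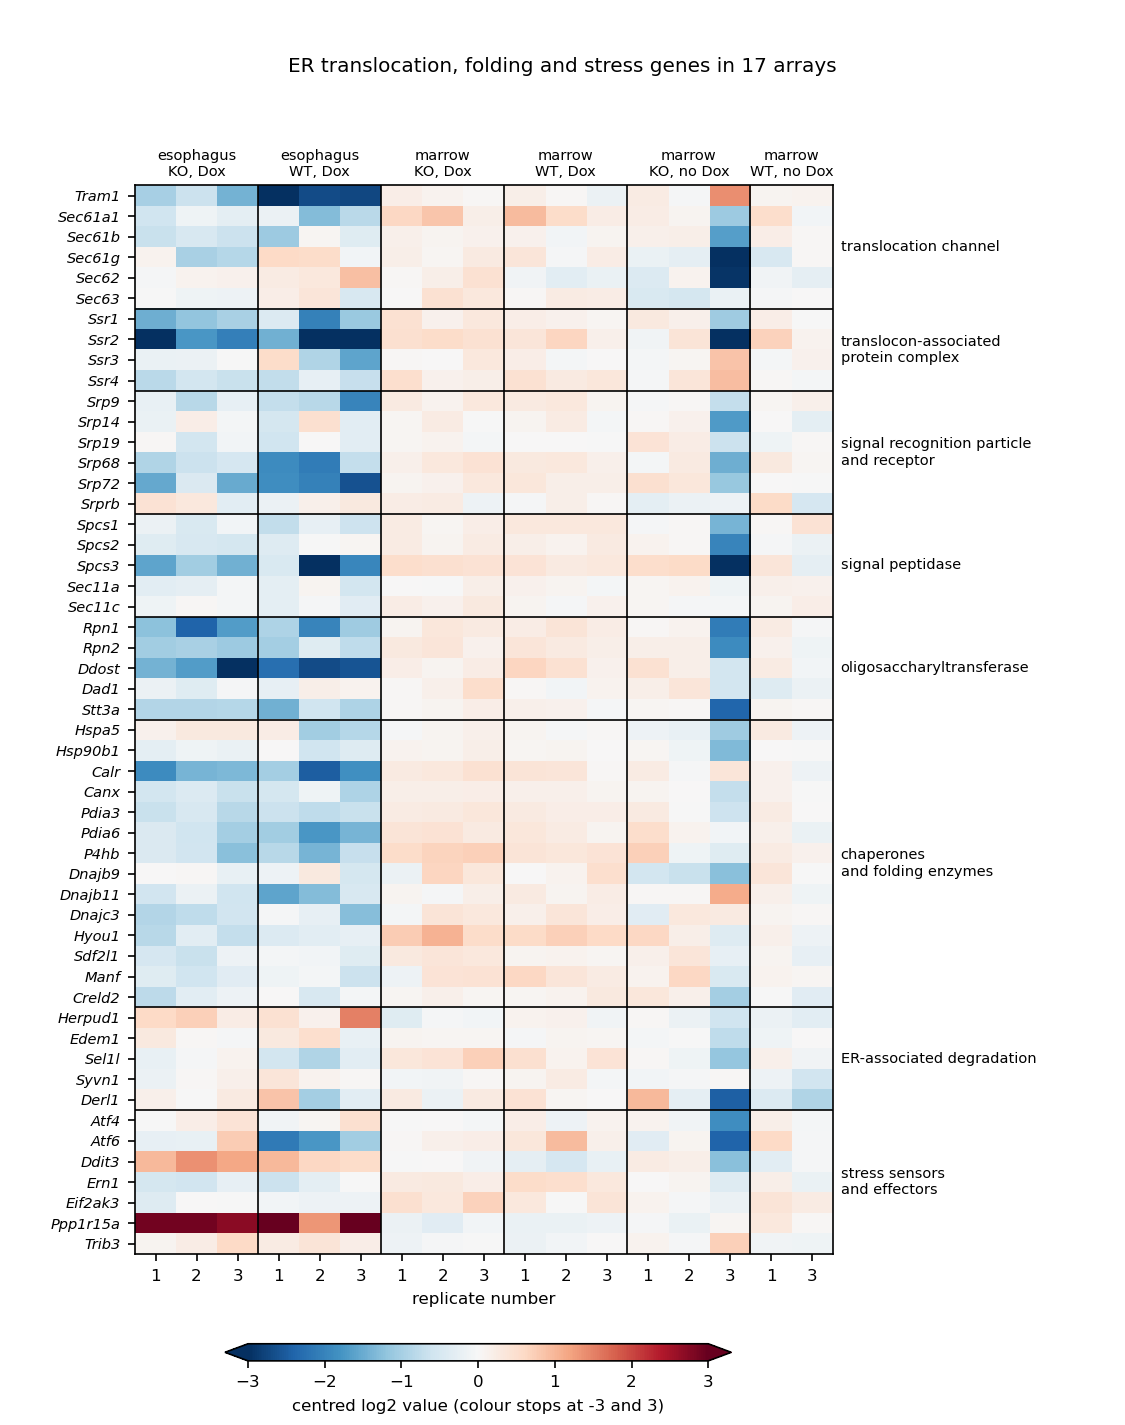
Centred log2 values of the 52 measured ER genes (rows, by function) in the 17 arrays (columns, by group and replicate number), with blue below and red above 0. Most rows are blue in the 6 esophageal columns, Ppp1r15a and Ddit3 are red there, and the third column of knockout marrow without Dox differs from its neighbours.

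Esophageal eosinophils carried less transcript of much of the ER machinery than marrow eosinophils from mice on Dox. In knockout mice 17 of the 52 genes were lower in the esophagus and 2 were higher, against a background of 10.5% of all genes passing the test in either direction (6.04% lower, 4.5% higher). In wildtype mice 21 were lower and 2 were higher, against a background of 15.2% (7.06% lower, 8.11% higher). The median difference of the 52 genes was -0.64 on the log2 scale in knockout mice, where all genes had a median of 0.060, and -0.67 in wildtype mice, where all genes had 0.14. The 2 genes that rose in both genotypes were Ppp1r15a and Ddit3, which belong to the stress response. The genes that passed in both genotypes numbered 16, which is 84.2% of the 19 in knockout and 69.6% of the 23 in wildtype. The same overlap over all genes is not given, so these 2 shares are no result particular to ER genes. Since the 2 genotypes have separate arrays in both tissues, these lists share no array, though they share 1 estimate of the spread. In bulk RNA, fewer cells of a type and less RNA per cell cannot be told apart.

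**Figure D2:**
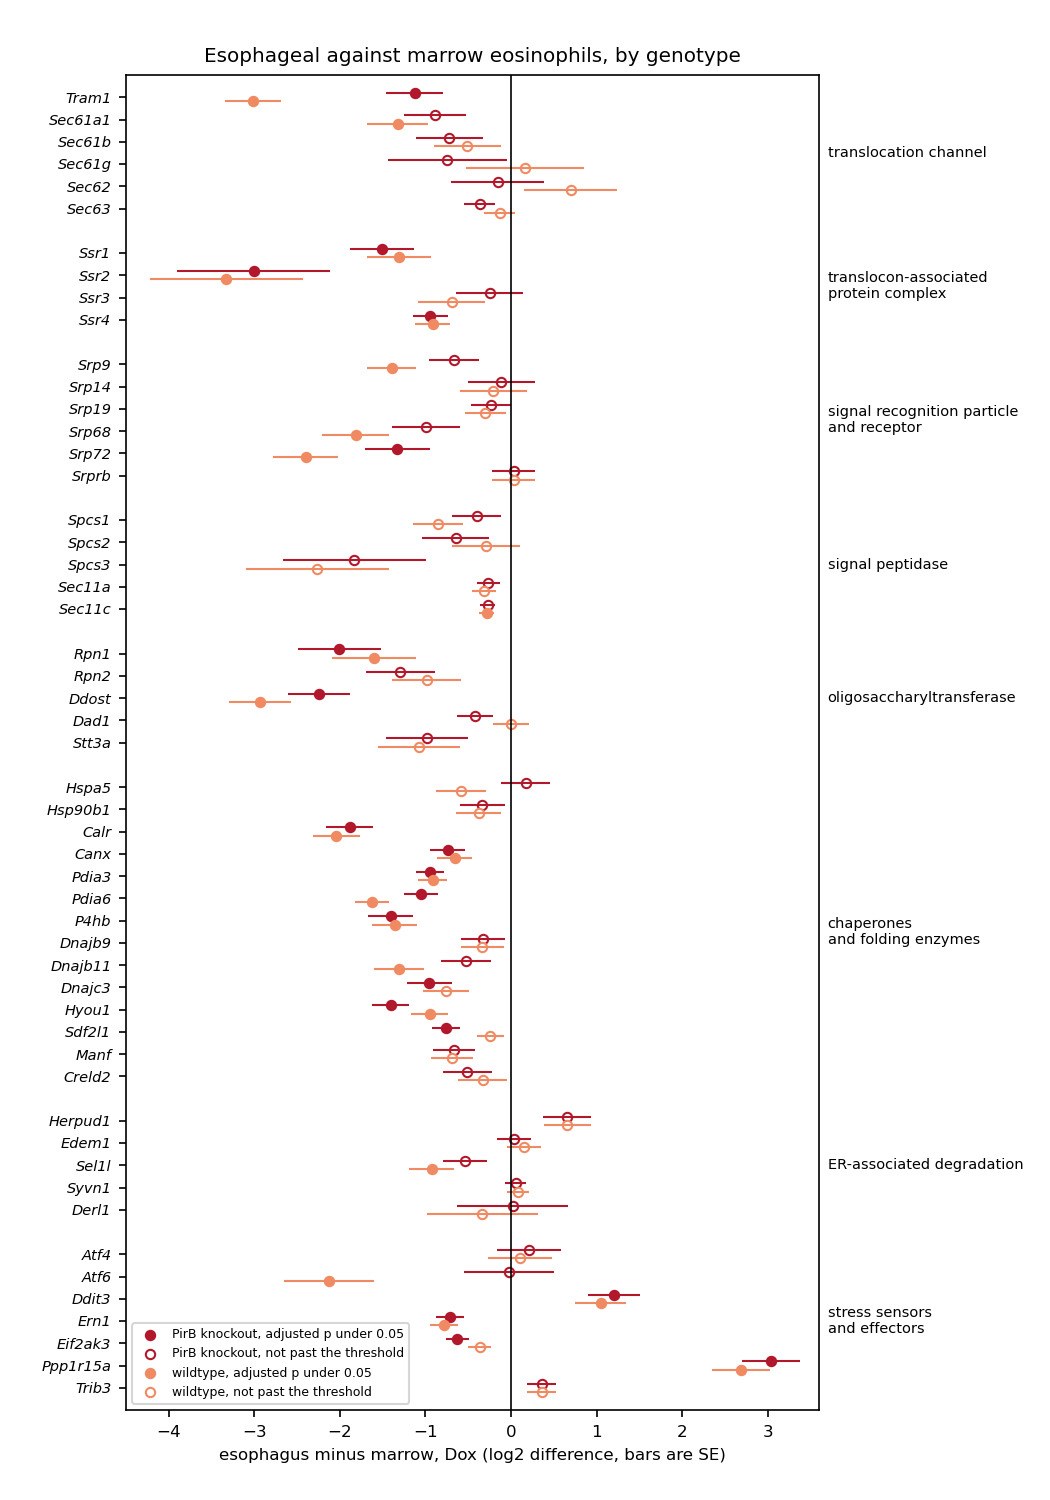
Log2 difference, esophagus minus marrow with Dox, of each ER gene in knockout (dark red) and wildtype (orange) eosinophils. Bars are SE of the linear model, and filled points passed an adjusted p of 0.05. Most points lie left of 0, and Ppp1r15a lies farthest right at 3.04 in knockout and 2.69 in wildtype.

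Tram1 encodes a membrane protein beside the Sec61 channel that helps some nascent chains into the membrane. Its knockout arrays had -0.99, -0.64 and -1.41 in the esophagus, against 0.19, 0.11 and 0.032 in marrow. Its wildtype arrays had -3.62, -2.68 and -2.72 in the esophagus, against 0.18, 0.041 and -0.18 in marrow. All 6 esophageal arrays lay below all 6 marrow arrays, and the wildtype esophageal arrays were the lowest of its 17. The difference was -1.13 ± 0.33 in knockout mice (SE, n = 3 and 3, adjusted p = 0.0462) and -3.02 ± 0.33 in wildtype mice (adjusted p = 0.000112), an 8.09-fold lower signal in the wildtype esophagus. Sec61a1, the pore-forming subunit, had -0.60, -0.14 and -0.30 in knockout esophagus, against 0.61, 0.84 and 0.18 in knockout marrow, and the difference of -0.89 ± 0.36 did not pass the test (adjusted p = 0.152). In wildtype mice it had -0.17, -1.30 and -0.80 in the esophagus, against 0.95, 0.54 and 0.21 in marrow, and fell by 1.33 on the log2 scale (SE 0.36, adjusted p = 0.0285). The groups of Sec61a1 did not overlap in either genotype. The other 4 channel genes, Sec61b and Sec61g of the channel and Sec62 and Sec63, which serve the entry of finished chains, did not pass in either genotype. Their differences ran between -0.74 for Sec61g and -0.15 for Sec62 in knockout mice, and between -0.51 for Sec61b and 0.70 for Sec62 in wildtype mice.

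Of the translocon-associated protein complex, which sits at the channel and assists the entry of some chains, 3 of 4 subunits fell in both genotypes. Ssr2 had -3.74, -1.75 and -2.04 in knockout esophagus, against 0.49, 0.54 and 0.45 in knockout marrow. It had -1.45, -3.77 and -3.58 in wildtype esophagus, against 0.37, 0.65 and 0.16 in wildtype marrow. These were the largest falls in size of any of the 52 genes in knockout mice (-3.01 ± 0.89, adjusted p = 0.0488) and in wildtype mice (-3.33 ± 0.89, adjusted p = 0.0273), with wide spread among the esophageal arrays. Ssr1 gave -1.47, -1.18 and -0.98 in knockout esophagus, against 0.45, 0.12 and 0.32 in knockout marrow, a difference of -1.51 ± 0.37 (adjusted p = 0.0189). In wildtype it gave -0.41, -2.03 and -1.11 in the esophagus, against 0.19, 0.13 and 0.047 in marrow, a difference of -1.31 ± 0.37 (adjusted p = 0.0332). Ssr1 is the mean of 2 probe sets, and with 1 probe set per gene it passed in neither genotype. The differences were then -1.50 in knockout (adjusted p = 0.144) and -1.45 in wildtype mice (adjusted p = 0.104). Ssr4 moved less but with a tighter spread. Its knockout arrays gave -0.80, -0.56 and -0.68 in the esophagus, against 0.50, 0.13 and 0.18 in marrow (-0.94 ± 0.20, adjusted p = 0.00843). Its wildtype arrays gave -0.74, -0.24 and -0.69 in the esophagus, against 0.46, 0.27 and 0.34 in marrow (-0.92 ± 0.20, adjusted p = 0.0113). No array of one tissue overlapped the other for these 3 genes. Ssr3, the remaining subunit, differed by -0.25 ± 0.39 in knockout and -0.69 ± 0.39 in wildtype mice and passed in neither.

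The signal recognition particle is a ribonucleoprotein that pauses translation and docks the ribosome at its ER receptor. Srp72, which with Srp68 forms the large protein pair of the particle, had -1.53, -0.44 and -1.51 in knockout esophagus, against 0.082, 0.12 and 0.31 in knockout marrow (-1.33 ± 0.38, adjusted p = 0.04). Wildtype arrays had -1.86, -2.04 and -2.61 in the esophagus, against 0.34, 0.17 and 0.17 in marrow (-2.40 ± 0.38, adjusted p = 0.00161). The tissues did not overlap in either genotype. Srp68 had -0.91, -0.65 and -0.51 in knockout esophagus, against 0.15, 0.32 and 0.43 in knockout marrow, and the difference of -0.99 ± 0.39 did not pass (adjusted p = 0.143). With -1.88, -2.09 and -0.71 in wildtype esophagus, against 0.29, 0.32 and 0.15 in wildtype marrow, it fell there (-1.81 ± 0.39, adjusted p = 0.0104). Srp9, of the part of the particle that slows elongation, gave the same pair of calls. Its values were -0.21, -0.84 and -0.25 in knockout esophagus, against 0.26, 0.11 and 0.32 in knockout marrow (-0.66 ± 0.29, adjusted p = 0.19, not passed). They were -0.71, -0.83 and -1.97 in wildtype esophagus, against 0.28, 0.32 and 0.084 in wildtype marrow (-1.40 ± 0.29, adjusted p = 0.00874). Srp14, the partner of Srp9, Srp19 and the receptor subunit Srprb did not pass, with differences from -0.24 to 0.031 in knockout and -0.30 to 0.031 in wildtype mice.

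Of the 5 subunits of signal peptidase, 1 passed, in wildtype mice. Sec11c, a catalytic subunit, had -0.14, 0.024 and -0.059 in knockout esophagus, against 0.22, 0.13 and 0.29 in knockout marrow (-0.27 ± 0.088, adjusted p = 0.0675, not passed). Its wildtype arrays had -0.29, -0.044 and -0.33 in the esophagus, against 0.080, -0.024 and 0.13 in marrow, and fell (-0.28 ± 0.088, adjusted p = 0.0457). The accessory subunit Spcs3 showed larger differences without passing, -1.83 ± 0.84 in knockout (adjusted p = 0.21) and -2.26 ± 0.84 in wildtype mice (adjusted p = 0.0789). Its wildtype esophageal arrays were spread widely, at -0.45, -3.37 and -1.96. Spcs1, Spcs2 and Sec11a were between -0.65 and -0.27 in knockout mice and between -0.85 and -0.29 in wildtype mice, and none passed.

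In oligosaccharyltransferase, the enzyme that transfers a preformed sugar chain to asparagine, Ddost and Rpn1 fell in both genotypes. Ddost, a subunit outside the catalytic one, had -1.42, -1.68 and -3.12 in knockout esophagus, against 0.20, 0.090 and 0.23 in knockout marrow (-2.25 ± 0.36, adjusted p = 0.00137). It had -2.27, -2.68 and -2.60 in wildtype esophagus, against 0.65, 0.46 and 0.12 in wildtype marrow (-2.93 ± 0.36, adjusted p = 0.000282). All 6 esophageal arrays lay below -1.4 and all 6 marrow arrays above 0. Rpn1, ribophorin I, had -1.24, -2.40 and -1.68 in knockout esophagus, against 0.093, 0.33 and 0.27 in knockout marrow (-2.01 ± 0.49, adjusted p = 0.0181). It had -0.91, -1.99 and -1.07 in wildtype esophagus, against 0.22, 0.39 and 0.22 in wildtype marrow (-1.60 ± 0.49, adjusted p = 0.0439). The groups of Rpn1 were wholly apart in both genotypes. Rpn2 and Stt3a, the catalytic subunit that works beside the channel, were also apart but did not pass. Rpn2 differed by -1.30 ± 0.40 in knockout (adjusted p = 0.0602) and -0.98 ± 0.40 in wildtype mice (adjusted p = 0.105), and Stt3a by -0.98 ± 0.48 (adjusted p = 0.241) and -1.08 ± 0.48 (adjusted p = 0.124). Dad1, a small subunit, was at -0.42 ± 0.21 in knockout and -0.0044 ± 0.21 in wildtype mice and passed in neither.

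Among the 14 measured chaperones and folding enzymes, 8 fell in knockout and 7 in wildtype mice, and none rose. The lectin cycle, in which calreticulin and calnexin hold glycoproteins while Pdia3 forms their disulfide bonds, fell in both genotypes. Calr, calreticulin, had -1.88, -1.41 and -1.34 in knockout esophagus, against 0.26, 0.31 and 0.46 in knockout marrow (-1.89 ± 0.28, adjusted p = 0.000726). It had -1.01, -2.47 and -1.84 in wildtype esophagus, against 0.39, 0.36 and 0.046 in wildtype marrow (-2.04 ± 0.28, adjusted p = 0.000595). Its signal was thus 3.7-fold lower in knockout and 4.12-fold lower in wildtype esophagus. Canx, calnexin, moved less, with -0.55, -0.42 and -0.68 in knockout esophagus, against 0.18, 0.18 and 0.21 in knockout marrow (-0.74 ± 0.20, adjusted p = 0.0316). Wildtype Canx values were -0.52, -0.14 and -0.92 in the esophagus, against 0.16, 0.16 and 0.085 in marrow (-0.66 ± 0.20, adjusted p = 0.0435). Pdia3 was steadier between arrays than either lectin. It had -0.67, -0.49 and -0.82 in knockout esophagus, against 0.24, 0.28 and 0.34 in knockout marrow (-0.95 ± 0.17, adjusted p = 0.00269). It had -0.65, -0.77 and -0.67 in wildtype esophagus, against 0.26, 0.21 and 0.19 in wildtype marrow (-0.92 ± 0.17, adjusted p = 0.00422). The tissues did not overlap for any of the 3 genes in either genotype.

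Both other disulfide isomerases fell as well. Pdia6 had -0.44, -0.60 and -1.02 in knockout esophagus, against 0.38, 0.43 and 0.27 in knockout marrow (-1.05 ± 0.20, adjusted p = 0.004). It had -1.05, -1.75 and -1.38 in wildtype esophagus, against 0.34, 0.26 and 0.078 in wildtype marrow (-1.62 ± 0.20, adjusted p = 0.000276). P4hb, protein disulfide isomerase itself, had -0.44, -0.58 and -1.26 in knockout esophagus, against 0.55, 0.68 and 0.71 in knockout marrow (-1.41 ± 0.27, adjusted p = 0.00387). Its wildtype values were -0.83, -1.40 and -0.69 in the esophagus, against 0.40, 0.34 and 0.41 in marrow (-1.36 ± 0.27, adjusted p = 0.00599). For both isomerases every esophageal array was below 0 and every marrow array with Dox above it.

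Hspa5 encodes BiP, the main ER chaperone and a standard marker of the unfolded protein response, and it did not fall in step with the others. It had 0.13, 0.30 and 0.29 in knockout esophagus, against -0.028, 0.080 and 0.15 in knockout marrow (0.17 ± 0.29, adjusted p = 0.785). It had 0.21, -1.03 and -0.85 in wildtype esophagus, against 0.078, -0.030 and 0.028 in wildtype marrow (-0.58 ± 0.29, adjusted p = 0.159). Neither difference passed, and the tissues overlapped in both genotypes. Hsp90b1, the ER form of the Hsp90 chaperones, differed by -0.33 ± 0.26 in knockout and -0.38 ± 0.26 in wildtype mice, not passed in either.

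The cochaperones of BiP were mixed. Hyou1, its nucleotide exchange factor, fell, with -0.84, -0.31 and -0.71 in knockout esophagus, against 0.76, 1.04 and 0.55 in knockout marrow (-1.41 ± 0.21, adjusted p = 0.000911). The wildtype values were -0.42, -0.31 and -0.24 in the esophagus, against 0.57, 0.71 and 0.60 in marrow (-0.95 ± 0.21, adjusted p = 0.0125). The tissues lay apart in both genotypes. The J-domain cochaperone Dnajb11 had -0.57, -0.18 and -0.60 in knockout esophagus, against 0.071, -0.037 and 0.18 in knockout marrow (-0.52 ± 0.29, adjusted p = 0.32, not passed). It had -1.57, -1.31 and -0.47 in wildtype esophagus, against 0.28, 0.089 and 0.22 in wildtype marrow (-1.31 ± 0.29, adjusted p = 0.0121). Sdf2l1, its partner, passed instead in knockout mice. Sdf2l1 had -0.51, -0.67 and -0.14 in knockout esophagus, against 0.29, 0.36 and 0.31 in knockout marrow (-0.76 ± 0.16, adjusted p = 0.00741). Its wildtype values of -0.059, -0.075 and -0.37 in the esophagus, against 0.071, 0.095 and 0.059 in marrow, differed by -0.24 ± 0.16 (adjusted p = 0.271). Dnajc3, another J-domain cochaperone, also passed in knockout mice, with -0.87, -0.77 and -0.58 in the esophagus, against -0.066, 0.39 and 0.32 in marrow (-0.95 ± 0.27, adjusted p = 0.0368). Its wildtype arrays had -0.031, -0.26 and -1.28 in the esophagus, against 0.14, 0.37 and 0.20 in marrow (-0.76 ± 0.27, adjusted p = 0.0671, not passed). A gene past the threshold in 1 genotype is not thereby shown to differ between genotypes, and the test of that difference is given with the interactions. Dnajb9, Manf and Creld2 did not pass, with differences from -0.67 to -0.33 in knockout and -0.69 to -0.33 in wildtype mice.

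Many chaperone promoters carry the ER stress response element, which ATF6 with NF-Y and XBP1 can bind. RefSeq promoter windows on GRCm38.p6, from 250 bases before to 50 bases after a start site, were matched by symbol for 43 of the 54 genes. The element, CCAAT and CCACG with any 9 bases between them, searched on both strands, was in 8 of the 43 (18.6%), against 0.137% of 27025 genes. The second form, ATTGG and CCACG with any 1 base between them, was in 2 (4.65%), against 0.0444%. The 2 forms share their CCACG end, and no window gave a match to both. The unfolded protein response element TGACGTGG and the ATF4 element TGATGNAAT were in none of the 43, against 0.714% and 1.08% of all genes. The matches are letters in a window and no measurement of binding. The 54 genes were chosen by name and include many chaperones, so the higher shares of the first 2 elements are no result of these arrays. All 10 stretches are shown because they set genes that fell in the esophagus beside genes that did not, with the same element. They read 5′ to 3′ on the gene's strand, with the element, on whichever strand it was found, in capitals.
Hspa5 (chr2:34772005-34772063, + strand): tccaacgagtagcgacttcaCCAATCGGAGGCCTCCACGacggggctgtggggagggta
Hsp90b1 (chr10:86705513-86705676, - strand): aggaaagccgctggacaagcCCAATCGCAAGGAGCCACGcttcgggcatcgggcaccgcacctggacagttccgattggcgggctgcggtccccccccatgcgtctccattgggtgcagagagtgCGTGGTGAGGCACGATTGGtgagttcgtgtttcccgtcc
Calr (chr8:84847055-84847113, - strand): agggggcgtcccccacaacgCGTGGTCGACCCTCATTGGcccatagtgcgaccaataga
Canx (chr11:50325780-50325838, - strand): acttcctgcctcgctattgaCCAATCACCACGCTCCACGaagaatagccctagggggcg
Pdia6 (chr12:17266471-17266529, + strand): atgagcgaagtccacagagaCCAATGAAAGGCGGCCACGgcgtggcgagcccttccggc
Dnajb11 (chr16:22857843-22857871, + strand): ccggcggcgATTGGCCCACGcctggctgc
Dnajc3 (chr14:118937807-118937865, + strand): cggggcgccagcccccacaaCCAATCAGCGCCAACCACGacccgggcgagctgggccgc
Creld2 (chr15:88819500-88819558, + strand): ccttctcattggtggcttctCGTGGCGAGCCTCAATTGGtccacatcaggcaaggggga
Herpud1 (chr8:94386357-94386407, + strand): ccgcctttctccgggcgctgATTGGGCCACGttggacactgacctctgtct
Syvn1 (chr19:6046512-6046570, + strand): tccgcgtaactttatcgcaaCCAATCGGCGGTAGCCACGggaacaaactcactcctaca
Calr, Canx and Pdia6 fell in both genotypes, Dnajc3 passed in knockout mice and Dnajb11 in wildtype mice, while Hspa5, Hsp90b1, Creld2, Syvn1 and Herpud1 passed in neither. The Hsp90b1 stretch holds 2 elements. In Dnajb11 the element lies 8 to 18 bases past the start site, and in the other 9 it lies before it, from -212 to -26. Neither of the 2 genes that rose, Ppp1r15a and Ddit3, had a match to any of the 4 elements in its window. Each element was in at most 1.08% of all genes, and no sequence outside the windows was searched. The absence in 2 genes therefore shows nothing about their control.

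ER-associated degradation returns misfolded proteins to the cytosol. Sel1l, the adaptor of the ubiquitin ligase Syvn1, had -0.23, -0.029 and 0.11 in knockout esophagus, against 0.35, 0.40 and 0.71 in knockout marrow (-0.54 ± 0.26, adjusted p = 0.238, not passed). It had -0.55, -0.91 and -0.31 in wildtype esophagus, against 0.48, 0.11 and 0.42 in wildtype marrow, and fell (-0.93 ± 0.26, adjusted p = 0.0317). The other 4 genes of the group passed in neither genotype. Herpud1, a stress-induced membrane protein of the ligase complex, was the highest of them at 0.66 ± 0.28 in knockout (adjusted p = 0.174) and 0.66 ± 0.28 in wildtype mice (adjusted p = 0.112), with esophageal arrays above marrow arrays in both. Edem1, which passes mannose-trimmed glycoproteins to degradation, Syvn1 and Derl1, a membrane protein of the exit route, lay between 0.023 and 0.054 in knockout and between -0.33 and 0.15 in wildtype mice.

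The stress sensors and effectors moved in opposite directions. Ppp1r15a encodes GADD34, which brings a phosphatase to the translation factor eIF2α and so restarts translation after stress. Of its 6 esophageal arrays, 5 held the highest values of all 52 genes in the series. It had 2.89, 2.89 and 2.71 in knockout esophagus, against -0.18, -0.35 and -0.091 in knockout marrow (3.04 ± 0.34, adjusted p = 8.8e-05), an 8.21-fold higher signal. It had 3.05, 1.33 and 3.13 in wildtype esophagus, against -0.20, -0.21 and -0.15 in wildtype marrow (2.69 ± 0.34, adjusted p = 0.000324), a 6.45-fold higher signal. Ddit3 encodes CHOP, a transcription factor that ATF4 induces and that activates Ppp1r15a. It had 0.98, 1.37 and 1.16 in knockout esophagus, against -0.0066, 0.0066 and -0.10 in knockout marrow (1.20 ± 0.30, adjusted p = 0.0203). Wildtype arrays had 0.97, 0.62 and 0.55 in the esophagus, against -0.27, -0.51 and -0.22 in marrow (1.05 ± 0.30, adjusted p = 0.0341). No esophageal array overlapped a marrow array with Dox for either gene. Trib3, a pseudokinase that CHOP also induces, was higher in each esophageal array than in any marrow array with Dox of its genotype, without passing, at 0.36 ± 0.17 in knockout (adjusted p = 0.228) and 0.36 ± 0.17 in wildtype mice (adjusted p = 0.142). Atf4 itself did not pass (0.21 ± 0.38 in knockout, 0.10 ± 0.38 in wildtype mice).

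The 3 sensors did not rise. Ern1, which encodes IRE1α, had -0.52, -0.58 and -0.26 in knockout esophagus, against 0.28, 0.30 and 0.21 in knockout marrow (-0.71 ± 0.17, adjusted p = 0.0142). It had -0.64, -0.30 and -0.0032 in wildtype esophagus, against 0.56, 0.51 and 0.33 in wildtype marrow (-0.78 ± 0.17, adjusted p = 0.00976), so it fell in both genotypes. Eif2ak3, the kinase PERK, had -0.38, 0.00053 and -0.00078 in knockout esophagus, against 0.49, 0.32 and 0.69 in knockout marrow, and fell there (-0.63 ± 0.13, adjusted p = 0.00874). Its wildtype arrays had -0.084, -0.14 and -0.16 in the esophagus, against 0.33, -0.00053 and 0.39 in marrow (-0.37 ± 0.13, adjusted p = 0.0772, not passed). Atf6, the membrane-bound transcription factor, passed in wildtype mice and not in knockout mice. It had -0.24, -0.22 and 0.77 in knockout esophagus, against 0.030, 0.15 and 0.20 in knockout marrow (-0.020 ± 0.52, adjusted p = 0.989). It had -2.13, -1.76 and -1.05 in wildtype esophagus, against 0.34, 0.95 and 0.16 in wildtype marrow, and fell by 2.13 on the log2 scale (SE 0.52, adjusted p = 0.0192). The transcript value says nothing of the activity of a sensor, which is set by cleavage or phosphorylation of the protein.

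**Figure D3:**
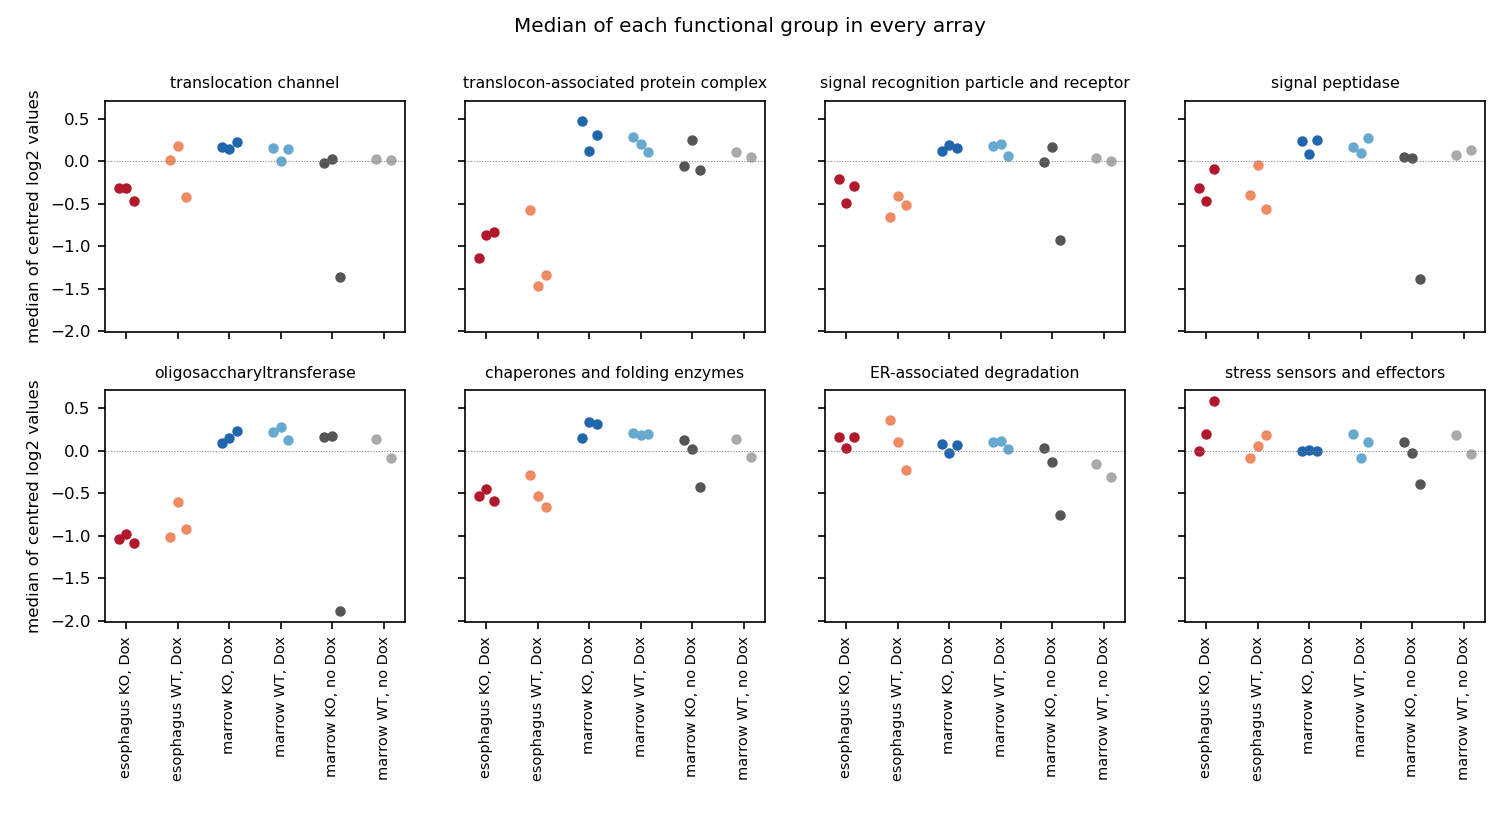
Median centred log2 value of each functional group of ER genes in every array (points), with groups along the horizontal axis. The esophageal arrays lie below the Dox marrow arrays of their own genotype for the translocon-associated complex, the signal recognition particle, signal peptidase, oligosaccharyltransferase and the chaperones, but not for the degradation and stress genes.

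Counted by whole arrays, 36 of the 52 genes had all 3 knockout esophageal arrays below all 3 knockout marrow arrays with Dox, against 16% of all genes, and 4 had them above, against 28%. In wildtype mice 32 were wholly lower, against 13.1%, and 5 wholly higher, against 33%. In the esophagus 33 genes were below 0 in every knockout array and 29 in every wildtype array, while in Dox marrow 36 were above 0 in every knockout array and 31 in every wildtype array. Since 0 is a midpoint over the arrays, the esophageal and marrow counts depend on each other. They are given without the share over all genes and so only describe the values. The calls depended on the fit. Without the outlying marrow array, which belongs to neither side of these comparisons but adds to the shared spread, 30 genes passed in knockout mice (3 higher, 27 lower, background 18.8%, with 9.75% higher and 9.07% lower) and 33 in wildtype mice (4 higher, 29 lower, background 36.5%, with 25.1% higher and 11.4% lower), and the differences themselves stayed as given. Of the genes called with all 17 arrays, 10 of 19 in knockout and 13 of 23 in wildtype mice passed under every one of 25 other settings, and none changed direction. Calr, Ddost, P4hb, Pdia3, Pdia6, Ppp1r15a and Ssr4 passed in both genotypes under all 25. Ern1, Srp9, Srp68, Srp72, Dnajb11 and Tram1 did so in wildtype mice, and Hyou1, Sdf2l1 and Eif2ak3 in knockout mice. The call of Ddit3 ended in wildtype mice once each array was centred on its median (0.95, adjusted p = 0.0840) and when any of the 6 wildtype arrays compared was left out, 7 of 25 settings in all. In knockout mice it ended under 6 of 25, quantile normalization (0.81, adjusted p = 0.0509) and leaving out any of the 6 knockout arrays compared other than esophageal replicate 1. The calls lost most often were those of Sec11c and Canx in wildtype mice, under 17 and 15 of the 25 settings, and of Ssr2 in knockout mice, under 14.

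**Figure D4:**
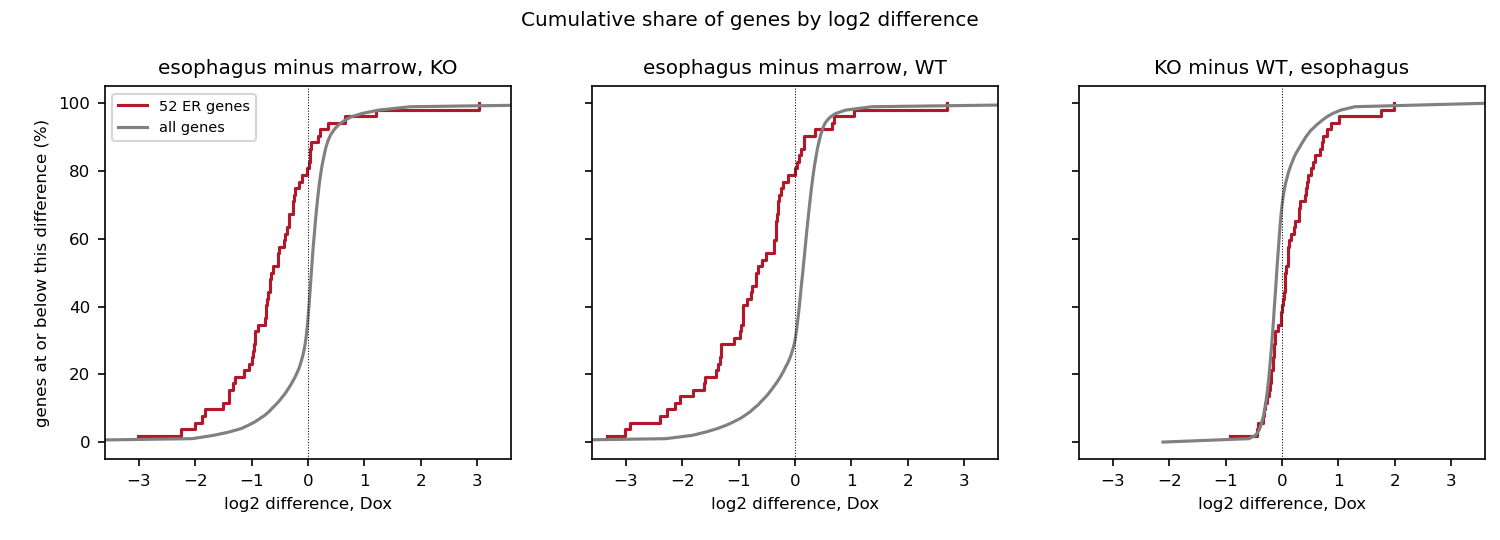
Share of genes (vertical axis, percent) at or below each log2 difference (horizontal axis), for the 52 ER genes (red steps) and for all 22180 genes (grey line, drawn from their percentiles). The red curves lie left of the grey ones in both tissue comparisons (medians of -0.64 against 0.060 in knockout, and of -0.67 against 0.14 in wildtype), and slightly right in the genotype comparison (0.061 against -0.095, though the median of the ER genes was below 0 under quantile normalization and with the Y-linked covariate).

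Granule and granulocyte genes differed between the tissues as well. As background for the marker counts, 4.5% of all genes passed as higher and 6.04% as lower in knockout mice. In wildtype mice these shares were 8.11% and 7.06%. Of the 17 neutrophil markers, which include granule genes of immature cells, 13 were lower and 2 higher in knockout esophagus than in knockout marrow, and 12 lower and 2 higher in wildtype. Their mean ran from -2.30 to -2.11 in knockout and from -2.90 to -2.21 in wildtype esophageal arrays, against -0.042 to 0.27 in knockout and 0.065 to 0.34 in wildtype Dox marrow arrays. Of the 11 eosinophil markers 3 were higher and 4 lower in knockout esophagus, and 1 higher and 3 lower in wildtype. Among their granule genes, -3.50 ± 0.41 in knockout and -3.50 ± 0.41 in wildtype mice were the differences of Epx, eosinophil peroxidase, and those of Prg3, a granule protein, were -4.91 ± 0.52 and -5.22 ± 0.52. The highest of the 11 was Alox15, which passed in both genotypes, at 3.36 ± 0.59 in knockout and 2.95 ± 0.59 in wildtype mice. Il5ra passed in knockout mice (2.44 ± 0.50) and not in wildtype mice (1.05 ± 0.50, adjusted p = 0.147). The eosinophil marker Siglecf, one of the sorting antigens, was higher in the knockout esophagus than in knockout marrow by 1.14 ± 0.16, and in wildtype mice the difference was 0.32 ± 0.16 and did not pass (adjusted p = 0.165). Plasma cells are rich in ER. Of 15 measured markers of plasma cells and B cells 1 was lower in knockout (Cd79b, -1.01 ± 0.27) and 1 higher in wildtype (Irf4, 0.40 ± 0.12), and their mean ran from -0.18 to 0.045 in knockout and 0.036 to 0.16 in wildtype esophageal arrays, against -0.065 to 0.059 in knockout and 0.027 to 0.056 in wildtype Dox marrow arrays. Of 16 monocyte and macrophage markers 2 were higher and 8 lower in knockout esophagus, and 2 higher and 2 lower in wildtype, while 4 of 10 mast cell and basophil markers were lower in both genotypes. Of 12 fibroblast and endothelial markers 4 were higher in knockout and 1 in wildtype esophagus, of 12 epithelial markers 1 was higher in knockout and 1 lower in wildtype, of 11 T cell and NK cell markers 1 was lower in knockout and 1 higher and 1 lower in wildtype, and of 5 erythroid markers 2 were lower in knockout and 1 in wildtype. All 12 fibroblast and endothelial markers had a positive difference in both genotypes, with medians of 0.46 in knockout and 0.38 in wildtype mice. Without the outlying marrow array 5 of the 12 markers passed as higher in knockout and 7 in wildtype esophagus. In that fit 9.75% of all genes passed as higher and 9.07% as lower in knockout mice, and 25.1% and 11.4% in wildtype mice. In the same fit 2 epithelial markers were higher in knockout, and 3 were higher and 1 lower in wildtype esophagus, 1 plasma cell or B cell marker was higher and 1 lower in knockout, and 3 were higher and 2 lower in wildtype esophagus. Eosinophil markers then passed 4 higher and 4 lower in knockout, and 1 higher and 5 lower in wildtype esophagus. Mast cell and basophil markers passed 1 higher and 5 lower in knockout, and 2 higher and 5 lower in wildtype. T cell and NK cell markers passed 1 higher and 1 lower in knockout. Monocyte and macrophage markers passed 2 higher and 9 lower in knockout, and 2 higher and 4 lower in wildtype esophagus. Neutrophil markers passed 2 higher and 14 lower in wildtype. Centred values cannot show which markers are undetected. The part of these cells and of maturation in the ER differences was not tested.

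Other genes of the ER, taken from a list that does not overlap the 54, were measured for 131 of 148. This list, too, was chosen with earlier results of these data known. In knockout mice 26 fell and 6 rose, and in wildtype mice 31 fell and 7 rose, with medians of -0.30 and -0.47, where 10.5% and 15.2% of all genes passed. Without the outlying marrow array 42 fell and 11 rose in knockout mice (background 18.8%), and 55 fell and 14 rose in wildtype mice (background 36.5%). Of the 5 lists within it, glycosylation genes had the most calls in knockout mice, with 9 of 25 lower and 1 higher, and 8 lower and 1 higher in wildtype mice. Without the outlying array folding genes had as many in knockout mice, with 13 of 30 lower, and glycosylation genes had 12 lower and 1 higher. Alg8, a glucosyltransferase that builds the sugar chain, was at -2.78 ± 0.42 in knockout and -2.77 ± 0.42 in wildtype mice. Stt3b, the other catalytic subunit of oligosaccharyltransferase, was at -1.77 ± 0.10 in knockout and -1.20 ± 0.10 in wildtype mice. Among folding genes 8 of 30 fell in knockout and 7 in wildtype mice, and Lman1, a cargo receptor for glycoproteins leaving the ER, was at -2.29 ± 0.34 and -1.84 ± 0.34. Of 24 degradation genes 2 fell and 1 rose in knockout and 5 fell in wildtype mice, among them Vcp, the ATPase that pulls proteins out of the membrane (-1.04 ± 0.15 and -1.42 ± 0.15). Of 25 further translocation genes 3 fell in knockout mice, and 5 fell and 1 rose in wildtype mice. Without the outlying array the degradation counts were 7 lower and 3 higher in knockout and 11 lower and 3 higher in wildtype mice, those of translocation 5 lower in knockout and 10 lower and 1 higher in wildtype mice, and that of folding 14 lower and 3 higher in wildtype mice. Stress signalling was again split, with 4 of 28 higher and 4 lower in knockout, and 5 higher and 6 lower in wildtype mice. Atf3, a transcription factor of the ATF4 branch, rose by 2.70 ± 0.37 in knockout and 1.59 ± 0.37 in wildtype mice. Cebpb, a partner of CHOP, rose by 1.45 ± 0.24 and 1.11 ± 0.24, and Nupr1, a stress-induced chromatin protein, by 0.85 ± 0.20 and 1.03 ± 0.20. Atf3 and Cebpb also answer inflammatory signals, as background. Xbp1, whose spliced form carries the IRE1 signal, did not pass (-0.91 ± 0.48, adjusted p = 0.284 in knockout, -1.31 ± 0.48, adjusted p = 0.0762 in wildtype mice).

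Within the esophagus, knockout and wildtype eosinophils differed in 1 of the 52 genes, Tram1, against 0.347% of all genes. The 3 knockout arrays had -0.99, -0.64 and -1.41, against -3.62, -2.68 and -2.72 in the 3 wildtype arrays. Tram1 was thus 3.97-fold higher in knockout esophageal eosinophils (1.99 ± 0.33 on the log2 scale, SE, n = 3 and 3, adjusted p = 0.0259), and the groups lay wholly apart. Both esophageal groups were below every marrow array of Tram1, so the knockout arrays lay between wildtype esophagus and marrow. Under quantile normalization the difference was 0.84 and the call ended (adjusted p = 0.832). Among the other settings that ended it, with differences from 1.80 to 2.32, were a fit of the 2 groups alone, Y-linked genes as a covariate, and leaving out knockout replicate 1, knockout replicate 2 or wildtype replicate 2. Without the outlying marrow array Tram1 and Atf6 passed (background 3.44%).

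**Figure D5:**
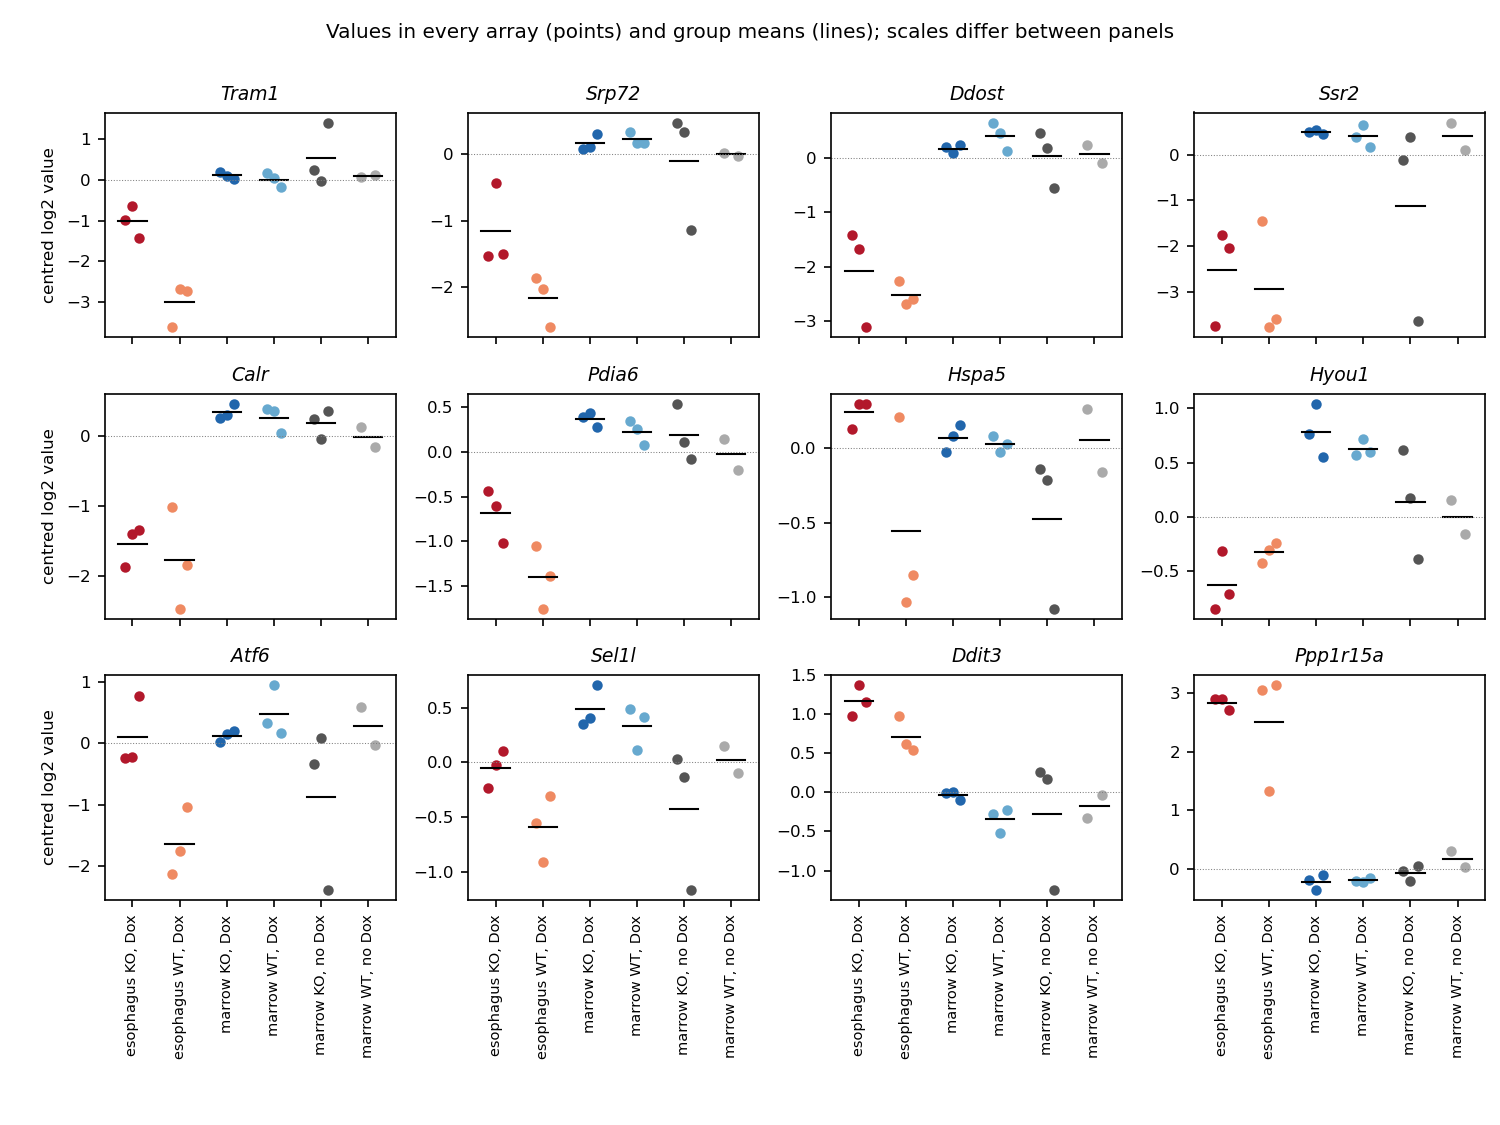
Centred log2 value of 12 ER genes in every array (points) with group means (lines), scales differing between panels. Tram1 is lowest in wildtype esophagus, Ppp1r15a and Ddit3 are highest in the esophagus of both genotypes, and the knockout marrow group without Dox has 1 array far from its other 2 in several panels.

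The gene of each functional group with the largest genotype difference in the esophagus, other than Tram1, did not pass the test. Sec61g of the channel had 0.12, -0.98 and -0.87 in knockout arrays, against 0.59, 0.54 and -0.079 in wildtype arrays (-0.93 ± 0.69, adjusted p = 0.507). Ssr3 of the translocon-associated complex had -0.21, -0.18 and -0.0088 in knockout arrays, against 0.54, -0.90 and -1.57 in wildtype arrays (0.51 ± 0.39, adjusted p = 0.518). Srp72 had -1.53, -0.44 and -1.51 in knockout arrays, against -1.86, -2.04 and -2.61 in wildtype arrays (1.01 ± 0.38, adjusted p = 0.272). The Srp72 arrays were apart, and those of Sec61g and Ssr3 overlapped. Spcs3 of signal peptidase had -1.58, -1.03 and -1.43 in knockout arrays, against -0.45, -3.37 and -1.96 in wildtype arrays (0.58 ± 0.84, adjusted p = 0.721). Rpn1 of oligosaccharyltransferase had -1.24, -2.40 and -1.68 in knockout arrays, against -0.91, -1.99 and -1.07 in wildtype arrays (-0.45 ± 0.49, adjusted p = 0.634). Both overlapped between genotypes. Hspa5 had 0.13, 0.30 and 0.29 in knockout arrays, against 0.21, -1.03 and -0.85 in wildtype arrays (0.80 ± 0.29, adjusted p = 0.26). Wildtype replicate 1 lay inside the range of the knockout arrays and the other 2 wildtype arrays lay far below it. Sel1l had -0.23, -0.029 and 0.11 in knockout arrays, against -0.55, -0.91 and -0.31 in wildtype arrays (0.54 ± 0.26, adjusted p = 0.349). Atf6 had -0.24, -0.22 and 0.77 in knockout arrays, against -2.13, -1.76 and -1.05 in wildtype arrays (1.75 ± 0.52, adjusted p = 0.198). The arrays of Sel1l and of Atf6 did not overlap. Pdia6, whose arrays were also apart, gave 0.71 ± 0.20 (adjusted p = 0.172).

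At an unadjusted p under 0.05 stood 8 of the 52, against 14.7% of all genes. Over all 52 genes 32 were higher and 20 lower in knockout esophagus, and the median difference was 0.061, where all genes had -0.095. This median was -0.0071 under quantile normalization and -0.16 with the Y-linked covariate. In 6 genes the knockout arrays lay wholly above the wildtype arrays, against 5.67% of all genes, and in 1, Sec62, wholly below, against 17.6%. All 6 measured genes of the signal recognition particle and its receptor had a positive difference, from 0.050 for Srprb to 1.01 for Srp72, none past the threshold. Of the 131 other ER genes, 1 passed (background 0.347%), Ncln, a partner of Nomo1 in a membrane complex at the translocon, which was lower in knockout (-0.46 ± 0.075, adjusted p = 0.0239). Without the outlying marrow array 6 of the 131 were higher and 2 lower in knockout (background 3.44%). Siglecf was higher in knockout by 0.95 ± 0.16 (adjusted p = 0.0259), and was the only 1 of the 11 eosinophil markers to pass. The mean of the 11 ran from -0.22 to 0.10 in knockout esophageal arrays, against -0.72 to -0.32 in wildtype. No marker of the other cell types passed. Without the outlying marrow array 3 of 16 monocyte and macrophage markers were lower in knockout (background 3.44%). So were 1 of 17 neutrophil markers and 1 of 12 fibroblast and endothelial markers. The part of these marker differences in the Tram1 difference was not tested.

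In marrow no ER gene passed the test between genotypes. With Dox, limma called 0 of the 52 (0% of all genes passed), 407 of all genes (1.83%) had an unadjusted p under 0.05, and 0 of the 52 did. Knockout minus wildtype differences ran from -0.36 for Atf6 to 0.43 for Sec62, with a median of 0.040 (all genes -0.020). In 8 genes the knockout arrays lay wholly above and in 2 wholly below the wildtype arrays, against 4.11% and 7.62% of all genes. Without Dox, limma again called 0 of the 52 (0% of all genes), with 1809 of all genes (8.16%) and 3 of the 52 at an unadjusted p under 0.05. These 3 were Dnajb9, a stress-induced cochaperone of BiP, Syvn1 and Eif2ak3. Dnajb9 had -0.55, -0.67 and -1.26 in knockout arrays, against 0.36 and -0.0097 in wildtype arrays (-1.0 ± 0.29, adjusted p = 0.546), and its groups did not overlap. The median over the 52 genes without Dox was -0.24 (all genes 0.094), and 0.030 once the outlying knockout array was left out.

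Dox raised no ER gene in marrow past the threshold in either genotype. In knockout mice limma called 0 of the 52, against 0.0225% of all genes, with 6053 of all genes (27.3%) and 12 of the 52 at an unadjusted p under 0.05. In wildtype mice it called 0, against 0.0225% of all genes, with 957 (4.31%) and 3 at an unadjusted p under 0.05. Differences were mostly positive, in 45 genes in knockout mice with a median of 0.44 (all genes -0.13), and in 41 genes in wildtype mice with a median of 0.16 (all genes -0.0050). Without the outlying array the knockout median was 0.11 (all genes -0.054), with 36 genes positive. In that fit 5 of the 52 and 2213 of all genes had an unadjusted p under 0.05 in knockout mice, and 5 and 1547 in wildtype mice. The arrays with Dox lay wholly above those without in 15 of the 52 genes in knockout mice, against 8.34% of all genes, and in 16 in wildtype mice, against 12.5%. Hyou1, the exchange factor of BiP, had 0.76, 1.04 and 0.55 in knockout arrays with Dox, against 0.62, 0.17 and -0.39 without (0.65 ± 0.21, adjusted p = 0.15). It had 0.57, 0.71 and 0.60 in wildtype arrays with Dox, against 0.16 and -0.16 without (0.63 ± 0.24, adjusted p = 0.98). Its wildtype arrays were wholly apart and its knockout arrays overlapped. The gene with the smallest p in knockout mice was Dnajb9, at -0.18, 0.66 and 0.35 with Dox, against -0.55, -0.67 and -1.26 without (1.10 ± 0.26, adjusted p = 0.134). Among wildtype mice it was Syvn1, at 0.092, 0.24 and -0.063 with Dox, against -0.15 and -0.58 without (0.46 ± 0.14, adjusted p = 0.708).

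The tests of the differences between differences found no ER gene. Whether the genotype effect differed between esophagus and marrow on Dox was called by limma for 0 of the 52 (0.00451% of all genes passed, 1099 of all genes, or 4.95%, and 3 of the 52 at an unadjusted p under 0.05). Tram1 had the smallest p there, with a genotype effect of 1.99 in the esophagus and 0.10 in marrow (1.89 ± 0.47, adjusted p = 0.569), followed by Atf6 (2.11 ± 0.74, adjusted p = 0.882). The same test says whether the tissue difference differed between genotypes, so no gene that passed in 1 genotype and not in the other was shown to differ between them. Whether the genotype effect in marrow differed with Dox was called for 0 of the 52 (0% of all genes, 1391 of all genes, or 6.27%, and 4 of the 52 at an unadjusted p under 0.05), and Eif2ak3 had the smallest p (0.61 ± 0.20, adjusted p = 0.663).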

How the data were processed

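RNA of sorted eosinophils was amplified and labelled for Affymetrix arrays, per the labels' protocols, and 17 arrays in 6 groups were analysed. The authors deposited 1 log2 value per probe set and array, centred so that 97.1% of 33793 probe sets have a middle pair of values equal and opposite within 2e-05. The base of the logarithm is not stated and was taken as 2. The submitters' processing notes name Affymetrix Expression Console, while its version, the background correction and the normalization are not given in the sources used here. Without brightness, no filter on dim probes was possible. The number of arrays limits the precision. The submitters left out 1 wildtype marrow array without Dox for low hybridization signal, per the design text.

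Of the probe sets, 23521 carried 1 gene symbol, 1814 several and 8458 none. Probe sets with 1 symbol were averaged per gene, which gave 22180 genes, 1082 of them (4 of the 52 ER genes) from several probe sets. One linear model of the 6 group means was fitted to all 17 arrays with limma 3.58.1 in R 4.3.3 (lmFit, eBayes, 11 residual degrees of freedom). Each of 9 contrasts was adjusted over all 22180 genes by the Benjamini-Hochberg method at 0.05. In the text "passed" means an adjusted p under 0.05, errors after ± are SE of this model, and an adjusted p printed as 1.00 was rounded. The fit was tested on simulated data. The ER genes, the lists and the markers were chosen with earlier results of these data known. Values in every array are given for ER genes that passed in any contrast (at most the 20 largest per contrast), for Tram1 and for the gene of each functional group with the largest genotype difference in the esophagus, and for others named beside a comparison. Of the other lists, only some of the genes that passed were named.

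The alternatives were centring each array, quantile normalization, only the groups compared, a replicate block, robust moderation, array weights, 1 probe set per gene, the mean of 3 Y-linked genes as a covariate (mice of both sexes were used), and leaving out each array in turn.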

Additional observations from a re-analysis of the deposited data

Results flagged for a closer look

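In 2 genes the genotype difference had opposite directions in 2 settings with no overlap of arrays in either. Sec62, which serves the entry of finished chains into the ER, was lower in all knockout arrays of the esophagus (-0.42 against wildtype) and higher in all knockout arrays of Dox marrow (0.43). Sec11c, a catalytic subunit of signal peptidase, was higher in all knockout arrays of Dox marrow (0.15 against wildtype) and lower in all knockout arrays of marrow without Dox (-0.15). Neither pair was chosen by a test of the difference, and in the model the interactions did not pass (adjusted p of 0.962 for Sec62 and of 0.663 for Sec11c). Of all genes, 17.6% had knockout arrays wholly below wildtype arrays in the esophagus, and 4.11% had them wholly above in Dox marrow. The share of all genes with opposite directions in 2 settings is not given, so the count of 2 is no result about ER genes. With groups of 2 or 3 arrays, single arrays were not tested for standing apart.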

How the results depend on the processing

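The count of ER genes passing in the genotype comparison of the esophagus, 1, was 0 under quantile normalization, with only the groups compared and with the Y-linked covariate, 5 with array weights, and between 0 and 4 when single arrays were left out (0 without knockout esophagus replicate 1 or 2 or wildtype esophagus replicate 2, 2 without knockout marrow replicate 3 of the mice without Dox, and 4 without wildtype esophagus replicate 1). For esophagus against marrow in knockout mice, 19, it was 32 with only the groups compared, 38 with array weights, and 11 (without knockout Dox marrow replicate 2 or 3) to 30 (without the outlying array) when single arrays were left out. In wildtype mice, 23, it was 35 with array weights, 14 with the Y-linked covariate, and 14 (without wildtype Dox marrow replicate 1) to 33 (without the outlying array). For Dox in knockout marrow, 0, it was 3 under quantile normalization, 8 with array weights, and 0 to 1 when single arrays were left out. The genotype by tissue count, 0, was 1 with array weights. The other 4 counts were 0 under all 25 settings. Centring each array left 18 in knockout and 21 in wildtype tissue comparisons, with medians of -0.68 and -0.78. Shares of all genes passing are given here only for the main fit and the fit without the outlying array. In that fit 18.8% of all genes passed in the knockout and 36.5% in the wildtype tissue comparison, against 10.5% and 15.2% with all arrays. The counts under the other settings have no such share beside them, so they only show how the calls depend on the fit. The causes of these changes were not tested.

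With the replicate number as a replicate block, 23 ER genes passed between tissues in knockout and 28 in wildtype mice, 0 between genotypes in the esophagus (Tram1 at an adjusted p of 0.0509), and 0 in each other comparison. The share of all genes passing with the block is not given here. The numbers were not taken to pair the samples, because in no 2 groups with 3 shared numbers did every same-numbered pair correlate above 0.1. Wildtype marrow without Dox shares only 2 numbers with each other group. Both of its pairs were above 0.1 with knockout marrow without Dox (0.18 and 0.20) and with wildtype Dox marrow (0.14 and 0.18). With wildtype esophagus 1 of 2 was, and with knockout Dox marrow and knockout esophagus 0 were.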

Other observations

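Pdia4 and Srp54a, the 2 ER genes without a probe set of their own, were read from shared probe sets and entered no test. The probe set shared by Pdia4, a disulfide isomerase, and Mir704 had -0.35, -0.59 and -0.67 in knockout esophagus, against 0.33, 0.32 and 0.25 in knockout Dox marrow. In wildtype mice it had -0.67, 0.0018 and -0.075 in the esophagus, against 0.12, 0.050 and 0.22 in Dox marrow, so the esophageal arrays were lower in both genotypes. A probe set shared by Srp54a, Srp54b and Srp54c had 0.23, 0.22 and 0.0024 in knockout esophagus, against 0.12, -0.057 and 0.15 in knockout Dox marrow. In wildtype mice it had -0.15, -1.33 and 0.077 in the esophagus, against 0.28, 0.14 and -0.38 in Dox marrow, and the tissues overlapped. The outlying array, replicate 3 of knockout marrow without Dox, had -3.80 for it.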
